A study of Mus musculus with 3 samples.

Results

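The small leucine-rich proteoglycans (SLRPs) are secreted matrix proteins of connective tissue. The 10 genes described here are Bgn, Dcn and Aspn of class I, Lum, Fmod, Omd, Prelp and Kera of class II, Ogn of class III and Podn of class V. They were picked out of the count table by gene symbol, from a list drawn up with earlier results of these data known, and all 10 were found among the 20937 genes of the count table. RNAseq had been run on the whole incisor enamel organ, the epithelium that forms enamel, of mice aged 4 weeks, and the methods of the study state that male mice were used. The study asked how gene expression differs when Stim1, the calcium sensor of the endoplasmic reticulum that opens store-operated calcium channels, is deleted in ameloblasts.

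There was 1 library per genotype. The Stim1 cKO library (Stim1 fl/fl, Cre+) carried 2 floxed alleles and AmelX-iCre, a recombinase driven by the amelogenin promoter and therefore aimed at ameloblasts, the enamel-forming cells. The Stim1 HT library (Stim1 fl/wt, Cre+) carried the same Cre and 1 floxed allele. The Stim1 Ctrl library (Stim1 fl/fl, Cre-) carried the floxed alleles without the Cre. Neither control thus shares both the Cre and the 2 floxed alleles with Stim1 cKO. Since each genotype was sequenced once, variation among mice is unknown, and every interval below covers counting error only.

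SLRP core proteins hold a run of leucine-rich repeats that binds collagen, and most of them carry glycosaminoglycan chains of chondroitin, dermatan or keratan sulfate. They set the spacing and diameter of collagen fibrils in tendon, cornea, skin, periodontal ligament, dentin and bone, and several bind transforming growth factor beta. They are typically made by fibroblasts and other mesenchymal cells, and ameloblasts are not their textbook source.

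The libraries held 21496136 counts for Stim1 cKO, 20216507 for Stim1 HT and then 28265960 for Stim1 Ctrl. Levels are given as CPM, the count relative to the library total after TMM scaling, which adjusts for differences in RNA composition. The targeted gene Stim1 stood at 72.8 CPM in Stim1 cKO, compared with 129 CPM in Stim1 HT and with 186 CPM in Stim1 Ctrl (edgeR adjusted p = 0.106). The labels name ameloblasts as the cell type, and Amelx, which encodes amelogenin, was present at 2064, 20009 and 14084 CPM in the same order. Genes of other tissues were present as well. The 8 skeletal muscle markers summed to 4660 CPM for Stim1 cKO, 22680 for Stim1 HT and then 30602 for Stim1 Ctrl, and 4 lens and photoreceptor markers to 556, 5.73 and 4.20 CPM. The 12 fibroblast and mesenchyme markers summed to 7684, 13875 and 16904 CPM, of which Sparc alone made up 5439, 8922 and 9859 CPM. No marker found in the count table had a count of 0, since that table holds no count under 1. The lens genes Crygd, Crygb and Cryba1 had no row in it. The part of these differences in the SLRP results was not tested, and in bulk RNA fewer cells of a type and less RNA per cell cannot be told apart.

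As a family, the SLRPs were lower in Stim1 cKO than in the controls when set against the whole library. Their counts made up 0.215% of the Stim1 cKO library, 0.341% of the Stim1 HT library and 0.422% of the Stim1 Ctrl library, or 1906, 3503 and 4631 CPM. In Stim1 cKO 9 of the 10 members lay below both controls, against 42.1% of all 18702 genes tested. In 5 members, Bgn, Aspn, Fmod, Kera and Ogn, Stim1 cKO lay more than 2-fold below both controls, against 8.24% of all genes. The median log2 fold change of the 10 members was -1.06, and that of all genes tested was -0.01. Relative to Vim in the same library, however, Stim1 cKO lay below both controls in 2 members only, Kera and Ogn. Per Vim count, most members were higher in Stim1 cKO. The Stim1 cKO value exceeded that of Stim1 HT in 8 members, with a median log2 ratio of 0.63 over all 10. It exceeded that of Stim1 Ctrl in 7 members, with a median of 0.46. Vim itself had a lower CPM in Stim1 cKO than in both controls, with a log2 fold change of -1.69. Any gene lowered less than Vim thus comes out higher in Stim1 cKO per Vim count. The share of all genes that did so is not given here, so these counts do not single out the SLRPs.

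**Figure D1:**
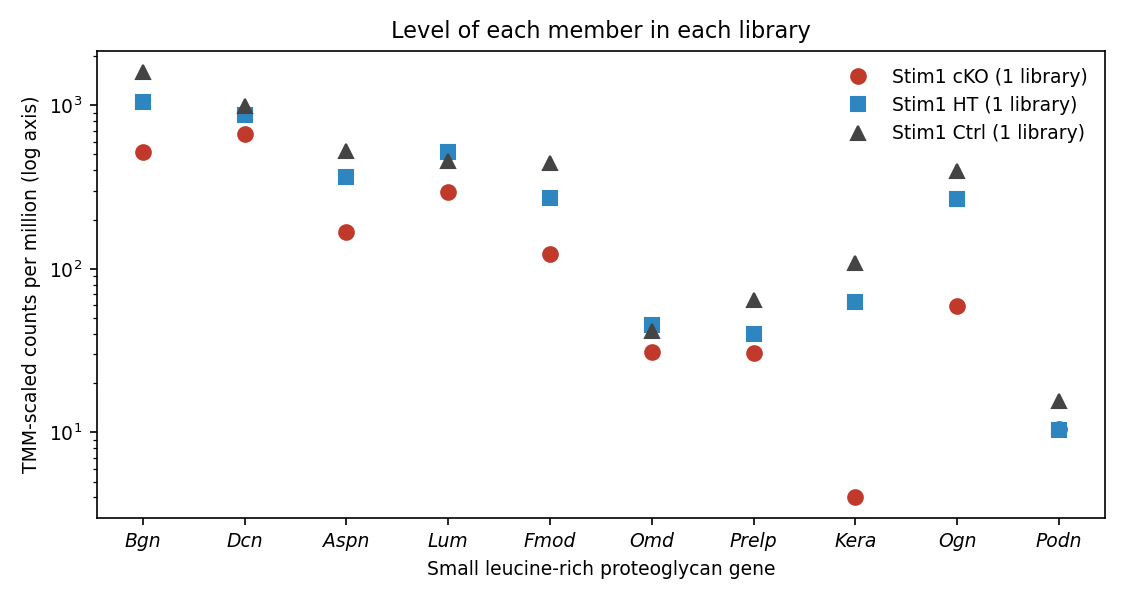
TMM-scaled CPM of each member (log axis) in the Stim1 cKO, Stim1 HT and Stim1 Ctrl libraries, with 1 point per library and no error bars because no genotype had a replicate. Stim1 cKO is the lowest point for every member except Podn, and Kera has the widest gap, from 4.05 to 108 CPM.

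The test of Stim1 cKO against the grouped controls had only the gap between its 2 controls to judge the spread by. With edgeR's quasi-likelihood test, called at a Benjamini-Hochberg adjusted p under 0.01 and a fold change over 2, none of the 10 members was called, as against 0.0856% of all genes, or 16 genes, all of them higher in Stim1 cKO. At an unadjusted p under 0.05, 5 members were lower, against 13.4% of all genes in that direction. At an adjusted p under 0.05 with the same fold change, Kera and Ogn were called lower, against 2.9% of all genes. DESeq2, the tool of the study, called 5 members lower at the first thresholds, namely Bgn, Aspn, Fmod, Kera and Ogn, against 5.1% of the genes for which it gave an adjusted p. Over the other scalings and filters the edgeR adjusted p ran from 0.00167 to 0.0256 for Kera, from 0.00909 to 0.0392 for Ogn, from 0.0470 to 0.109 for Fmod, from 0.0526 to 0.106 for Aspn and from 0.106 to 0.158 for Bgn. The calls thus depended on the tool and, for Kera and Ogn, on the filter, since both were called when no filter on low counts was applied.

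Among the class I members, Bgn encodes biglycan, which carries chondroitin or dermatan sulfate chains and is abundant in bone and dentin. It lies on chromosome X, from 73483602 to 73495933 (GRCm38, GENCODE M21). Bgn stood at 516 CPM in Stim1 cKO, compared with 1051 CPM in Stim1 HT and with 1598 CPM in Stim1 Ctrl. The Stim1 cKO level was 2.04-fold below the nearer control, Stim1 HT, and 3.10-fold below Stim1 Ctrl. The log2 fold change against the grouped controls was -1.36 (SE 0.444, edgeR adjusted p = 0.114), with an adjusted p of 0.00264 by DESeq2. Dcn encodes decorin, the close relative of biglycan that binds type I collagen fibrils, and lies on chromosome 10, from 97479609 to 97518143. Its levels were 669, 870 and 985 CPM (Stim1 cKO, Stim1 HT, Stim1 Ctrl), the narrowest range of the class. Dcn had a log2 fold change of -0.47 (SE 0.351, edgeR adjusted p = 0.396). The order of the pair by count differed between libraries. There were 0.771 Bgn counts per Dcn count in Stim1 cKO (95% Wilson interval 0.754 to 0.790), compared with 1.21 in Stim1 HT and with 1.62 in Stim1 Ctrl. This ratio is taken within a library and does not depend on the scaling between libraries.

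Aspn encodes asporin, a member that lacks glycosaminoglycan chains and is found in the periodontal ligament. Its levels were 168 CPM for Stim1 cKO, 367 CPM for Stim1 HT and then 525 CPM for Stim1 Ctrl. Stim1 cKO was thus 2.19-fold below Stim1 HT, a wider gap than that between the controls. Aspn had a log2 fold change of -1.41 (SE 0.388, edgeR adjusted p = 0.0818), with an adjusted p of 0.00114 by DESeq2. Aspn shares 7 exonic bases with Cenpp, a centromere protein gene on the opposite strand.

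The class II members, many of which carry keratan sulfate or tyrosine sulfate, spread the most. Kera encodes keratocan, a keratan sulfate proteoglycan best known from the corneal stroma and also made in tendon. It lies on chromosome 10, from 97606879 to 97613692. Its counts were 98 in Stim1 cKO, compared with 1238 in Stim1 HT and with 2780 in Stim1 Ctrl, or 4.05, 62.8 and 108 CPM. Stim1 cKO was 15.5-fold below Stim1 HT and 26.7-fold below Stim1 Ctrl, whereas the controls differed by a log2 ratio of -0.78 (Stim1 HT over Stim1 Ctrl). The log2 fold change was -4.40 (SE 0.492), the lowest of the 10 members, with an adjusted p of 0.0179 by edgeR and of 4.14e-18 by DESeq2. The counts behind the Stim1 cKO level are few, and the 95% interval of its log2 ratio to Stim1 HT ran from -4.27 to -3.66.

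Lum encodes lumican, a regulator of collagen fibril diameter in cornea and skin, and lies on chromosome 10 as well, from 97565128 to 97572703. It stood at 294 CPM for Stim1 cKO, 518 CPM for Stim1 HT and then 456 CPM for Stim1 Ctrl, so that Stim1 HT was the highest library. For Lum the log2 fold change was -0.73 (SE 0.329, edgeR adjusted p = 0.200). Fmod encodes fibromodulin, which shares a collagen binding site with lumican and is abundant in tendon. Its levels were 124, 272 and 441 CPM, in the order Stim1 cKO, Stim1 HT and Stim1 Ctrl. For Fmod the log2 fold change was -1.53 (SE 0.425, edgeR adjusted p = 0.0840), and DESeq2 gave an adjusted p of 0.00150.

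Omd encodes osteomodulin (osteoadherin), a proteoglycan of mineralized matrix made by osteoblasts and odontoblasts. It stood at 31.1 CPM in Stim1 cKO, compared with 45.5 CPM in Stim1 HT and with 41.8 CPM in Stim1 Ctrl. The controls differed within counting error, with a 95% interval of their log2 ratio from -0.01 to 0.25. Stim1 cKO lay below both, with a log2 fold change of -0.49 (SE 0.241, edgeR adjusted p = 0.228). Prelp encodes a heparin-binding member that links basement membranes to collagen. Its levels were 30.7, 39.8 and 64.3 CPM, and here Stim1 cKO and Stim1 HT were closer to each other than the controls were. The log2 fold change of Prelp was -0.76 (SE 0.362, edgeR adjusted p = 0.217). Prelp shares 350 exonic bases with the antisense gene Gm15851, and reads of the pair cannot be told apart where counting ignores strand, a setting not given in the sources used here.

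Ogn, the class III member, encodes osteoglycin (mimecan), found in bone, cornea and tendon. Its counts were 1437 for Stim1 cKO, 5255 for Stim1 HT and then 10234 for Stim1 Ctrl, or 59.3, 267 and 398 CPM. Stim1 cKO was 4.49-fold below Stim1 HT and 6.70-fold below Stim1 Ctrl. The log2 fold change was -2.48 (SE 0.412), with an adjusted p of 0.0323 by edgeR and of 2.45e-09 by DESeq2. Podn, which encodes the class V member podocan, was the exception of the family. It stood at 10.5 CPM in Stim1 cKO, compared with 10.4 CPM in Stim1 HT and with 15.5 CPM in Stim1 Ctrl, so that Stim1 cKO lay between the controls. The log2 fold change was -0.30 (SE 0.422, edgeR adjusted p = 0.649), and the log2 ratio of Stim1 cKO to Stim1 HT was 0.012 (95% interval -0.26 to 0.28).

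**Figure D2:**
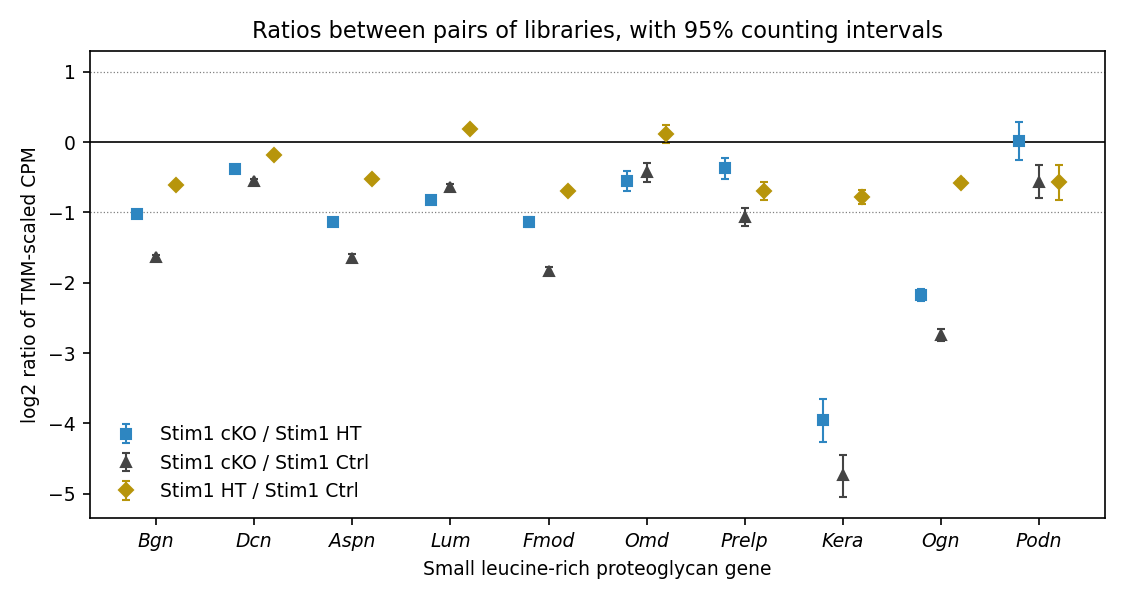
Log2 ratios of TMM-scaled CPM between pairs of libraries for each member, with 95% exact (Clopper-Pearson) intervals that cover counting error only and dotted lines at 2-fold. Kera and Ogn lie lowest against both controls, and the ratios of Stim1 HT to Stim1 Ctrl stay between -0.78 and 0.18.

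The comparison of Stim1 HT with Stim1 Ctrl shows how far 2 libraries labelled as controls differed. None of the 10 members was more than 2-fold apart between them, against 13.5% of all genes tested. The log2 ratios of Stim1 HT to Stim1 Ctrl ran from -0.78 in Kera to 0.18 in Lum. Stim1 HT was below Stim1 Ctrl in 8 members, all but Lum and Omd, against 49.7% of all genes. In 7 members, namely Bgn, Dcn, Aspn, Fmod, Prelp, Kera and Ogn, the levels followed the order Stim1 cKO, Stim1 HT, Stim1 Ctrl from low to high, against 25.4% of all genes. With 1 library per genotype this order has no replicate check.

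Levels can be compared between genes only per length. Per kilobase of exon (the union of exons in GENCODE M21), the highest member in Stim1 Ctrl was Bgn at 262 CPM per kb, followed by Aspn at 223, Lum at 186 and Dcn at 169. In Stim1 cKO the order was Lum at 120, Dcn at 115, Bgn at 84.6 and Aspn at 71.2 CPM per kb. Kera stood seventh in Stim1 Ctrl at 47.4 CPM per kb and last in Stim1 cKO at 1.77. The order at the top depended on the length used, because the exons of Bgn span 6099 bases in union but 2666 in its longest transcript. On the longest transcript Bgn led in all 3 libraries, at 194 CPM per kb for Stim1 cKO, 394 for Stim1 HT and then 599 for Stim1 Ctrl. Kera remained last in Stim1 cKO with either length.

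Shares of the family's own counts show the same unequal differences without any scaling between libraries. Dcn took 35.1% of the SLRP counts in Stim1 cKO (95% Wilson interval 34.7 to 35.5), compared with 24.8% in Stim1 HT and with 21.3% in Stim1 Ctrl. Bgn took 27.1%, 30.0% and 34.5% in the same order. Ogn made up 3.11% in Stim1 cKO, and 7.61% and 8.58% in the controls. The share of Kera was 0.212% in Stim1 cKO (0.174 to 0.259), compared with 1.79% in Stim1 HT and with 2.33% in Stim1 Ctrl. Dcn was therefore the leading SLRP transcript by count in Stim1 cKO, and Bgn in both controls.

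The SLRPs bind collagen fibrils, so their counts were also set against those of Col1a1, the main chain of type I collagen, within each library. Kera was at 0.192 counts per 1000 Col1a1 counts in Stim1 cKO (95% Wilson interval 0.158 to 0.234), compared with 2.78 in Stim1 HT and with 2.90 in Stim1 Ctrl. Ogn was at 2.81, 11.8 and 10.7 counts per 1000 in the same order, and Fmod at 5.88, 12.0 and 11.8. For these genes the controls lay close together per Col1a1 count and Stim1 cKO apart from both. Bgn, Aspn and Prelp were also lowest in Stim1 cKO, with 24.5, 7.95 and 1.46 counts per 1000. Dcn behaved otherwise, with 31.7 counts per 1000 Col1a1 counts in Stim1 cKO between 26.4 in Stim1 Ctrl and 38.4 in Stim1 HT, and so did Lum and Omd. Podn was at 0.497 in Stim1 cKO, above 0.460 and 0.415 in the controls. Set against Vim, which encodes vimentin, the members looked different again. Vim itself was at 466 CPM in Stim1 cKO, compared with 1370 CPM in Stim1 HT and with 1635 CPM in Stim1 Ctrl, and Dcn was at 1436 counts per 1000 Vim counts in Stim1 cKO, compared with 635 in Stim1 HT and with 603 in Stim1 Ctrl. Bgn, Aspn and Prelp changed direction with the reference gene. Per 1000 Vim counts they were at 1108, 360 and 66.0 in Stim1 cKO, above both controls. Dcn, Lum and Omd lay between the controls per Col1a1 count and above both per Vim count. Podn was above both controls with either reference, and Fmod lay between them per Vim count. Only Kera and Ogn were lowest in Stim1 cKO against both reference genes.

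**Figure D3:**
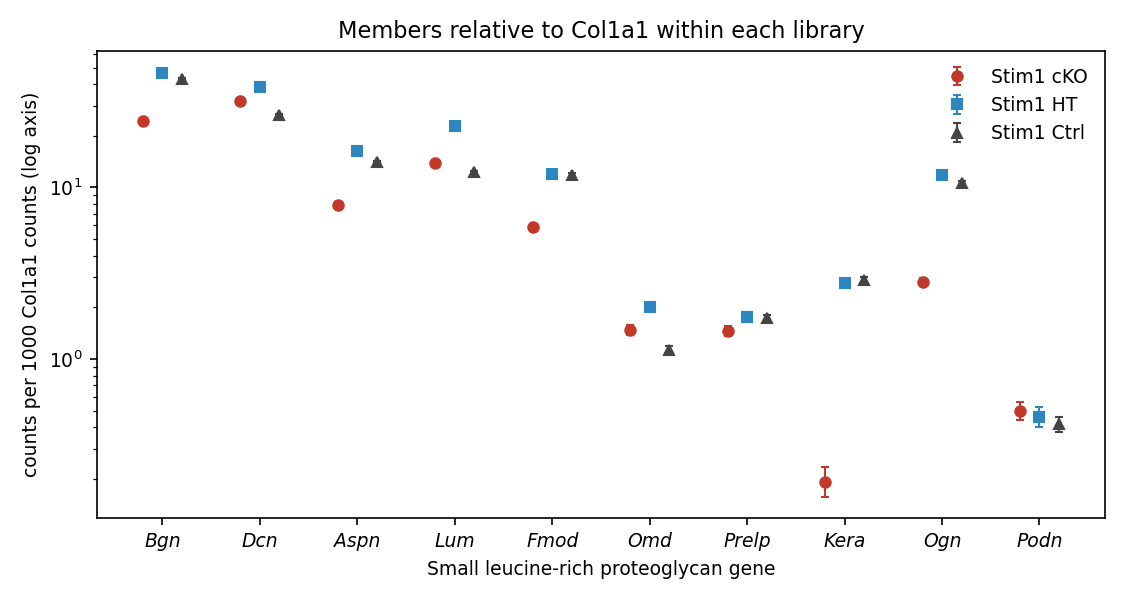
Counts of each member per 1000 Col1a1 counts in the same library (log axis), with 95% Wilson intervals covering counting error only. The controls nearly coincide for Kera, Fmod and Prelp, and Stim1 cKO lies below both for Bgn, Aspn, Fmod, Prelp, Kera and Ogn.

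Of the 10 members, 8 stand in 3 clusters of the genome, and the size of the difference varied between neighbours. On chromosome 10, Dcn, Lum, Kera and Epyc follow each other on the same strand within 203 kb. The log2 ratios of Stim1 cKO to Stim1 HT were -0.38 in Dcn, -0.82 in Lum, -3.96 in Kera and -3.40 in Epyc, the gene of the cartilage proteoglycan epiphycan. On chromosome 13, Ecm2, Aspn, Omd and Ogn lie within 120 kb, on the opposite strand to Cenpp, with Aspn from 49544443 to 49567565, Omd from 49582462 to 49592822 and Ogn from 49608046 to 49624501. Here the ratios to Stim1 HT were -0.27 in Ecm2, -1.13 in Aspn, -0.55 in Omd and -2.17 in Ogn, so that Omd lay between neighbours with wider differences. On chromosome 1, Optc and Prelp (133910304 to 133921414) lie side by side, and Fmod (134037254 to 134048277) further along the other strand. The ratios to Stim1 HT were 0.78 in Optc, -0.37 in Prelp and -1.14 in Fmod. Bgn on chromosome X and Podn on chromosome 4, from 108014791 to 108096445, stand outside these clusters.

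**Figure D4:**
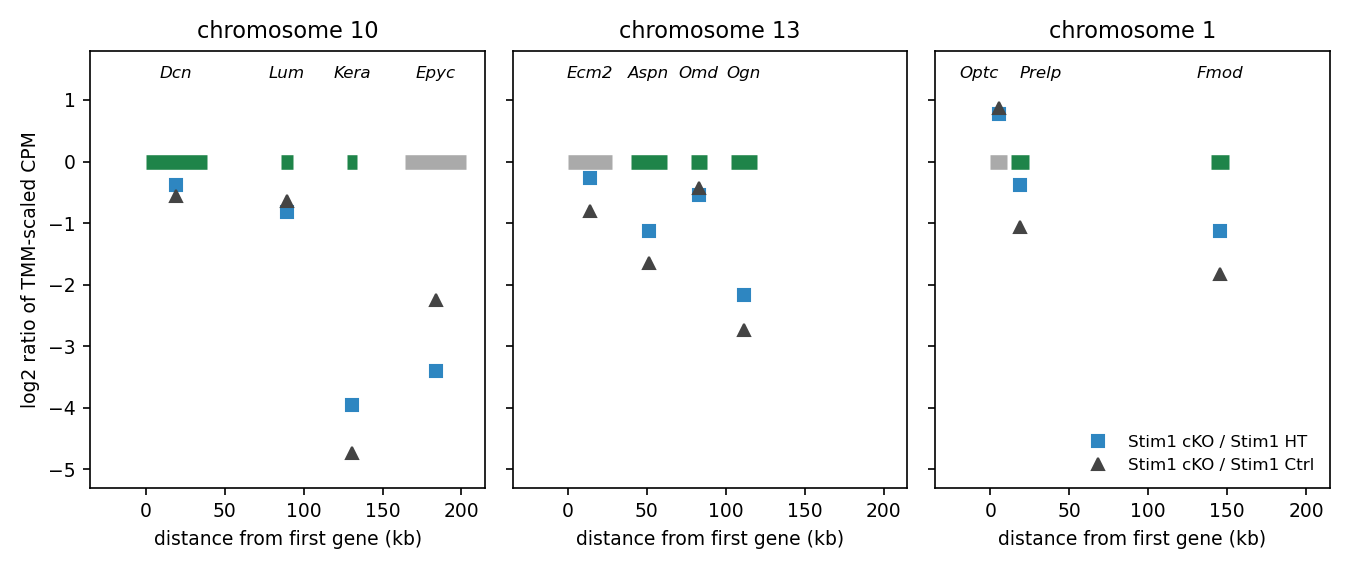
Log2 ratios of TMM-scaled CPM of Stim1 cKO to Stim1 HT (squares) and to Stim1 Ctrl (triangles) against distance in kb from the first gene of each cluster, with bars for the extent of member genes (green) and other SLRP genes (grey). Kera and Epyc lie low at one end of the chromosome 10 cluster, and Omd lies above both Aspn and Ogn.

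The chromosome 13 trio of Aspn, Omd and Ogn is shown with its promoters because the size of the difference varied between these neighbours. The 250 bases before the RefSeq start (GRCm38.p6, plus strand) are printed 5′ to 3′, and capitals mark matches on either strand to the TATA box (letters TATAAA), the CCAAT box (letters CCAAT), the E box (letters CANNTG) or the RUNX core (letters TGTGGT). The windows are chr13:49544193-49544442 for Aspn, chr13:49582212-49582461 for Omd and chr13:49607765-49608014 for Ogn.
Aspn: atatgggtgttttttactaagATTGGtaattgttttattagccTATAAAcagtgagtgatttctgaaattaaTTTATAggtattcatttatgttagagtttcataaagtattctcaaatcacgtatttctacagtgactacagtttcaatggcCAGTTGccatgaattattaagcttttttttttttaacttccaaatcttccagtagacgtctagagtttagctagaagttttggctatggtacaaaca
Omd: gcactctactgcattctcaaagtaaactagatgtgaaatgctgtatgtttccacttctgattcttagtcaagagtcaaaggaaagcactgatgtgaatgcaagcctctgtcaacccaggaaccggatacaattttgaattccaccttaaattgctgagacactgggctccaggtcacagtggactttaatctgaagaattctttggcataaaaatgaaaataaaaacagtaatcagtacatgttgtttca
Ogn: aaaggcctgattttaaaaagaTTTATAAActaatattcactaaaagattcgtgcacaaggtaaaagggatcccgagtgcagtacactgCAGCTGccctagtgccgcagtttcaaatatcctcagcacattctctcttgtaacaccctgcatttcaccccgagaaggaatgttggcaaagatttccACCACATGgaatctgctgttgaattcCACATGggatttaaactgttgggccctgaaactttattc

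The Ogn window held 3 E boxes, 1 RUNX core that overlaps an E box and a pair of overlapping TATA boxes on opposite strands. The Aspn window held 2 TATA boxes, 1 CCAAT box and 1 E box, and the Omd window held none of these letters. The TATA boxes lay 222 to 229 bases before the start in Ogn and 173 to 207 in Aspn. Of 32851 promoter windows of the same length, 12.4% held a TATA box, 33.8% a CCAAT box, 66.2% an E box and 14.0% a RUNX core. Of the 10 members, 8 had a RefSeq promoter in the table used, and among those 5 held an E box and 1, Ogn, a RUNX core. The window of Kera, chr10:97606955-97607204, lies inside the gene as placed by GENCODE M21. Podn (log2 fold change -0.30) held E boxes, and Kera (-4.40) held none. All of these are matches of letters and not measured binding sites, and their part in the differences was not tested.

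The other SLRP genes did not share one direction. Of 8 listed and tested, 4 lay below both controls in Stim1 cKO and 3 above, with a median log2 fold change of -0.34. Of all 18702 genes tested, 42.1% lay below both controls and 8155 genes lay above both. Epyc was at 1.73 CPM for Stim1 cKO, 18.3 for Stim1 HT and then 8.24 for Stim1 Ctrl (log2 fold change -2.93, edgeR adjusted p = 0.0622), and DESeq2 called it lower. Chad, which encodes the cartilage protein chondroadherin, was at 25.3, 16.5 and 10.6 CPM, and Nyx (nyctalopin, a protein of the retina) at 1.03, 0.254 and 0.350 CPM, from 25, 5 and 9 counts. Log2 fold changes were -0.56 in Ecm2, -0.35 in Chadl, -0.35 in Tsku and -0.32 in Podnl1. For Optc, the gene of opticin, the log2 fold change was 0.82, from 19, 9 and 11 counts. None of the 8 was called by edgeR.

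Collagens, which the SLRPs bind, had a lower median log2 fold change than the SLRPs. The list held 14 genes of fibril-forming, fibril-associated and type VI collagens. All 14 lay below both controls, with a median log2 fold change of -2.14, and DESeq2 called 12 of them lower while edgeR called none. Col2a1, the cartilage collagen, was at 23.3 CPM in Stim1 cKO, compared with 352 in Stim1 HT and with 502 in Stim1 Ctrl (log2 fold change -4.19), and Col14a1 had a log2 fold change of -2.78. The collagens with the smallest differences were those of type I, with log2 fold changes of -0.51 in Col1a1 and -1.07 in Col1a2. Col1a1 stood at 21082 CPM in Stim1 cKO and 22632 CPM in Stim1 HT, against 37257 CPM in Stim1 Ctrl.

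Of the 22 enzymes that build the glycosaminoglycan linker or the chondroitin and dermatan sulfate chains, 20 lay below both controls and 1, Xylt1, above, with a median log2 fold change of -0.87. DESeq2 called 2 of them lower, Chpf and Chsy1, which take part in building the chondroitin chain, with DESeq2 log2 fold changes of -1.74 and -1.15 (named here after their values were seen), and edgeR called none. The lowest edgeR log2 fold changes were -2.38 in Chsy3, a chondroitin synthase, and -1.99 in Chst7, a chondroitin sulfotransferase, both from low counts in Stim1 cKO and called by neither tool. At the other end were B3gat3 (0.14) and Xylt1 (1.88), which encode enzymes of the linker. The keratan sulfate enzymes differed little, with a median log2 fold change of -0.09 over 6 genes tested of 7 listed, from -0.54 in Chst2 and -0.44 in B4galt1 to 0.31 in B4galt4 and 0.43 in Chst5, and neither tool called any. Among 15 binding partners and processing enzymes, 11 lay below both controls, with a median of -0.75. The lowest were Lox, which cross-links collagen (-1.56), and Pcolce, an enhancer of procollagen processing (-1.38), and these were the 2 that DESeq2 called. The highest were P2rx7 (0.40) and Met (0.50).

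The SLRPs were also set beside lists of markers of connective tissue cell types. The 12 fibroblast and mesenchyme markers had a median log2 fold change of -1.38, and 11 lay below both controls. They ranged from Fbln2 (-2.18) and Mfap5 (-2.15), of elastic and microfibrillar matrix, to Twist1 (-0.27) and Thy1 (0.16). The 6 tendon and ligament markers had a median of -1.13, with Tnmd, the tendon gene tenomodulin, at 7.10, 97.9 and 153 CPM in Stim1 cKO, Stim1 HT and Stim1 Ctrl (log2 fold change -4.14, edgeR adjusted p = 0.0172). Scx, a transcription factor of tendon, had a log2 fold change of -1.84, Comp of 0.06 and Egr1 of 0.21. The controls of Comp were far apart, at 5.73 CPM in Stim1 HT and 20.0 in Stim1 Ctrl, against 13.4 in Stim1 cKO. For the 10 bone and odontoblast markers the median was -0.53, from Mepe (-3.32) and Spp1 (-2.49) to Runx2 (0.38) and Dspp (0.67). The 7 cartilage markers had a median of -0.32, from Hapln1 (-1.94) and Acan (-1.02) to Matn1 (1.05) and Sox9 (1.33).

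The remaining lists cover tissues that an enamel organ dissection could hold or that stood out in these libraries. The 11 enamel epithelium markers had a median log2 fold change of 0.43, from Amelx (-3.05) and Ambn (-2.83) to Krt14 (1.20) and Odam (2.35). Of 8 skeletal muscle markers 7 lay below both controls, with a median of -2.51, from Myh3 (-4.67) and Myh8 (-4.18) to Myh1 (-0.53) and Myh4 (1.45). The controls of Myh4 were far apart, at 318 CPM in Stim1 HT and 29.1 in Stim1 Ctrl, against 473 in Stim1 cKO. The 4 lens and photoreceptor markers reported here lay above both controls, with a median of 8.60, from Cryaa (5.41) and Sag (7.09) to Prph2 (10.11) and Gnat1 (10.13). Because Kera is a corneal gene, the corneal list was read beside it: Aldh3a1, an abundant corneal enzyme, was at 266 CPM for Stim1 cKO, 11.0 for Stim1 HT and then 12.9 for Stim1 Ctrl, in the opposite direction to Kera. Ptgds was at 23.5, 124 and 4.93 CPM, so that Stim1 cKO lay between controls that were far apart. Aqp1 was at 158, 245 and 326 CPM (log2 fold change -0.85), in the same direction as Kera. Chst5 had a log2 fold change of 0.43, and the 5 genes, Kera included, had a median of -0.85. The 6 blood cell markers had a median of -0.74, from S100a9 (-1.59) and Hba-a1 (-1.22) to Ptprc (0.70) and Lyz2 (0.82). The part of muscle, eye or blood RNA in the SLRP levels was not tested.

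**Figure D5:**
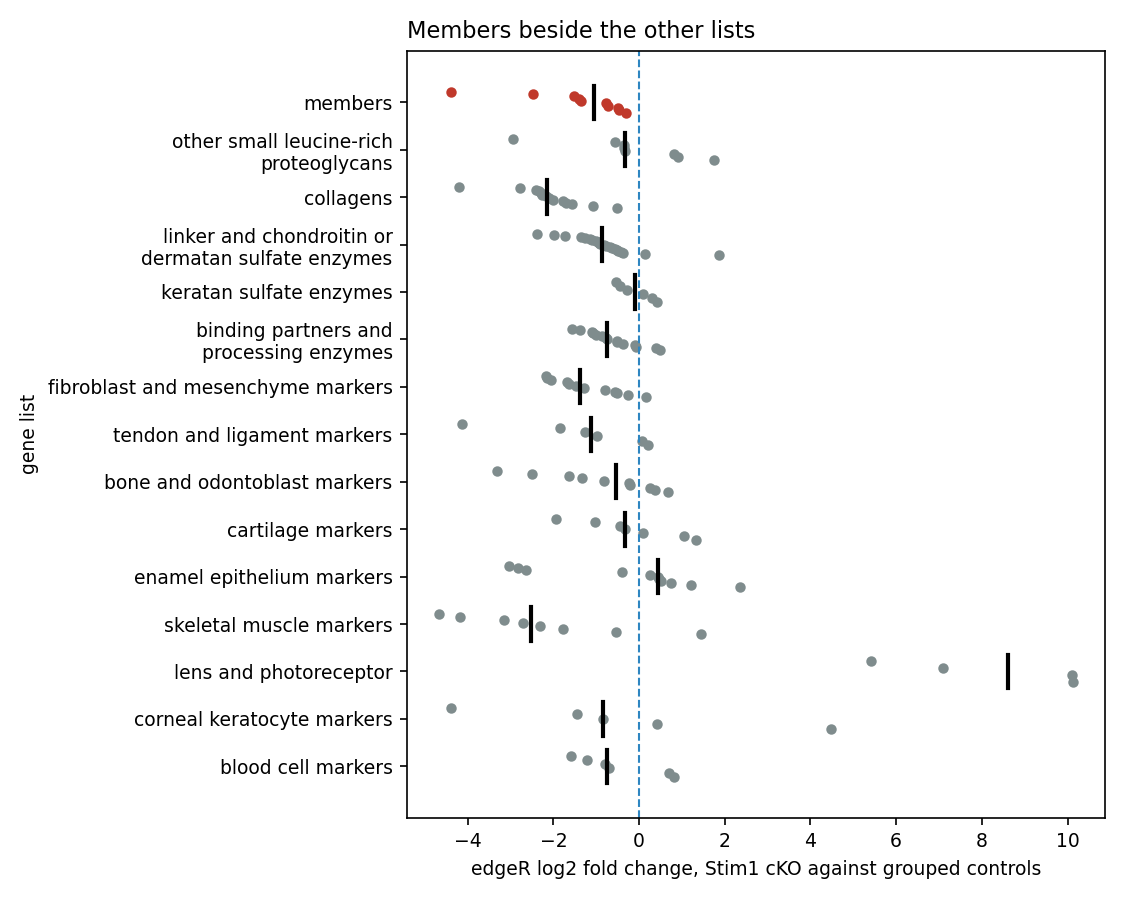
edgeR log2 fold change of Stim1 cKO against the grouped controls for each gene tested (points) of the SLRP members (red) and of the other lists (grey), with a black bar at each list's median and a dashed line at the median of all genes tested. The members lie at or below -0.30 with a median of -1.06, between the collagens (-2.14) and the keratan sulfate enzymes (-0.09).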

How the data were processed

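RNAseq counts of 3 libraries, 1 per genotype, were analysed. After quality filtering and trimming, the authors mapped paired-end reads with STAR and deposited raw counts per gene symbol. The aligner version, genome build, annotation, counting tool and strand setting are not given in the sources used here. The paper names a directional NEBNext kit and the labels a SMARTER kit. Each of the 20937 rows has at least 1 count in every library, and 25 rows with date symbols hold 0.154% of the counts.

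The test set Stim1 cKO against Stim1 HT and Stim1 Ctrl taken as 1 control group, in edgeR 4.0.16 and R 4.3.3 (TMM, filterByExpr with 18702 genes kept, quasi-likelihood test, Benjamini-Hochberg adjustment over all genes tested). SE is the log2 fold change divided by the root of the F statistic. Residual degrees of freedom were 1. DESeq2 1.42.0, other scalings, filters and thresholds, and leaving out each control were alternatives. Ratios to Col1a1 and Vim and the longest-transcript lengths were added after the values were seen. The tests were also run on simulated counts, in which both controls were drawn from the same mean for each gene. In these data the controls differ in genotype, so that run cannot show how the tests behave here. Counting intervals at 95% used scipy 1.17.1 under Python 3.11.15. Positions and lengths came from GENCODE M21 on GRCm38, which holds 20712 of the symbols, and promoters from RefSeq.

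The members and lists were chosen with earlier results of these data known. The genes named were all members, the other SLRP genes, Stim1, and in each other list the 2 highest and 2 lowest log2 fold changes among genes tested, plus marker genes read beside a result. A gene of these lists is not reported here.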

Additional observations from a re-analysis of the deposited data

How the results depend on the processing

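The number of members called was 0 with edgeR under RLE, upper-quartile and library size scaling, under TMM without mitochondrial and enamel matrix genes and with a mean of at least 50 counts. It was 5 with DESeq2, 2 without a filter on low counts and 2 at an adjusted p under 0.05, the last by a looser threshold. The cause of the first and second was not tested. Leaving out either control leaves 1 library against 1, so no test could be made there. The median log2 fold change of the members ranged from -1.07 to -0.79 over scalings and tools, and was -1.35 without Stim1 HT and -0.92 without Stim1 Ctrl. Over all genes the median became 0.25 with library size scaling and 0.12 with upper-quartile scaling. The 9 members below both controls stayed 9 under every other scaling of whole libraries, were 10 and 9 without Stim1 HT and Stim1 Ctrl, and were 6 per Col1a1 count and 2 per Vim count. No member was over 2-fold apart between the controls under any setting. Of 70 tested values of single members under the alternatives, 63 kept their direction and side of the threshold and 7 passed it. Of 30 values with no test (without a control, or as log2(CPM + 1) differences), 29 kept their direction and 1 changed sign, namely Podn, at 0.012 without Stim1 Ctrl and -0.56 without Stim1 HT. No paired analysis was possible because each genotype has 1 library.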
